A study of Xenopus laevis with 46 samples.

Results

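The step from the pluripotent blastula, stage 9, to the lineage-restricted early neurula, stage 13, was followed in *Xenopus laevis* animal pole explants kept in the BET inhibitor IBET, and it was read beside the same step in vehicle. It rests on 4 of the 46 samples of the series, 2 at each stage with IBET, and on 4 vehicle samples, 2 at each stage. All were explants of wild-type embryos treated from the 2-cell stage, either with IBET or with its solvent DMSO (vehicle), up to the stage of collection, so that IBET was present throughout the step and also before it. No label says that the 2 libraries of a group came from separate clutches, and p-values then measure only the spread between these libraries, which may be technical. The question of the comparison is how cells without BET activity pass from pluripotency to lineage restriction. A second pair of vehicle groups, made for the TSA arm of the study, served only to choose genes without using these libraries.

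Animal pole cells of the blastula can still form derivatives of every germ layer, and left to themselves they form epidermis under their own BMP signals, including multiciliated cells, ionocytes and secretory cells. Between the stages maternal transcripts are cleared while zygotic genes are switched on. BET proteins bind acetylated lysines on histones through their bromodomains and recruit the elongation factor P-TEFb, and IBET occupies those bromodomains. The allotetraploid genome carries most genes as homeologous copies, named .L and .S, which were counted apart.

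Between 13661850 and 21458325 reads per library were assigned to genes. The share of all reads that fell in genes was 68.6 to 69.2% in the 2 IBET libraries of stage 13 and 74.2 to 77.2% in the other 6 libraries, and its part in the results below was not tested. Levels are CPM, reads scaled to library size with edgeR's trimmed-mean factors (TMM), and changes are log2 differences with their standard error (SE), where 1 stands for 2-fold. A step is the level at stage 13 against that at stage 9, and a gene was called at an adjusted p under 0.05 over all 24090 gene copies tested. RNA from fewer cells of a type and less RNA per cell cannot be told apart in these bulk samples.

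The label of the stage 13 explants was checked against markers of epidermis, the tissue such explants form, and the IBET libraries carried only some of them. The larval keratin *krt12.4.L* stood at 2789 and 3490 CPM with vehicle and at 17.3 and 3.51 CPM with IBET. The basal epidermal regulator *tp63.S* stood at 104 and 127 CPM against 0.25 and 0.05 CPM, and *tp63.L* at 1.29 and 1.92 CPM against no read in either IBET library. *trim29.L* stood at 1618 and 1832 CPM against 48.2 and 32.6 CPM. Yet the ectodermal regulators *grhl3.L*, at 548 and 723 CPM against 444 and 508 CPM, and *tfap2a.L*, at 365 and 362 CPM against 464 and 463 CPM, were present at similar size. Other ectodermal regulators were lower with IBET, *grhl3.S* at 156 and 144 CPM against 560 and 708 CPM, *dlx3.L* at 14.8 and 6.81 CPM against 201 and 214 CPM, and *gata3.L* at 7.2 and 4.86 CPM against 111 and 106 CPM. The keratin *krt70.S* was lower but abundant, at 3994 and 3469 CPM against 9434 and 11720 CPM. The epidermal markers were thus near absent, reduced or kept with IBET, depending on the gene. Markers of other tissues moved in both directions. The neural markers *zic1.S*, at 251 and 249 CPM with IBET and 2.96 and 1.26 CPM with vehicle, and *sox2.L*, at 93.5 and 62.0 CPM and 37.2 and 22.8 CPM, were higher with IBET at stage 13. The neural marker *ncam1* was at a similar level in both at stage 13. *ncam1.L* stood at 11.9 and 10.1 CPM with IBET and 10.5 and 10.8 CPM with vehicle, and *ncam1.S* at 2.2 and 2.27 CPM and 1.97 and 2.14 CPM. The muscle regulator *myod1.L* stood at 18.22 and 10.59 CPM with IBET and 2.05 and 1.04 CPM with vehicle, and the endoderm regulator *sox17a.L* at 11.4 and 10.1 CPM and 3.42 and 2.0 CPM. These were higher with IBET, and *myod1.L* already so at stage 9, at 11.45 and 11.08 CPM against 2.75 and 2.69 CPM. Its homeolog *myod1.S* was lower with IBET at stage 13, at 1.61 and 1.68 CPM against 3.87 and 3.33 CPM. Some other mesoderm and endoderm markers were also higher with vehicle. *tbxt.S* reached 61.8 and 54.2 CPM with vehicle and 5.59 and 1.19 CPM with IBET, and *a2m.S* reached 116 and 120 CPM and 16.1 and 14.7 CPM. The mesoderm marker *tbxt.L* reached 31.3 and 28.6 CPM with vehicle and 0.08 and 0.05 CPM with IBET at stage 13, and the mesodermal *msgn1.L* stayed at or below 7.29 CPM in all 8 libraries. The erythroid *hba3.L* stayed at or below 2.07 CPM. The part of these markers in the results below was not tested.

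With IBET most of the transcriptome still moved between the stages. With IBET 8377 gene copies rose (34.8% of those tested) and 8179 fell (34.0%), and with vehicle 8424 rose (35.0%) and 8527 fell (35.4%). The step itself differed between the treatments for 7270 gene copies, being higher with IBET for 3567 (14.8%) and lower for 3703 (15.4%). Without library b of vehicle stage 13 it differed for 4790. These splits depend on the scaling. By library totals alone, 6174 rose and 10429 fell with IBET, 6196 rose and 11249 fell with vehicle, and the difference was higher for 4062 and lower for 3290. The median step of all genes was 0.03 with IBET and -0.03 with vehicle under TMM, and -0.44 and -0.61 by library totals, so that levels and calls below are relative to TMM.

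The number of moving genes was thus much alike, while the genes were only partly shared. Of the 8424 that rose with vehicle, 5929 (70.4%) also rose with IBET, 2060 (24.5%) were not called and 435 (5.16%) fell. Of the 8527 that fell with vehicle, 6342 (74.4%) also fell with IBET, 1829 were not called and 356 (4.17%) rose. For all 435 and all 356 gene copies that moved in opposite directions the difference between the steps was called too. Opposite calls in the same fit nearly ensure this, so it is no separate support. A further 2092 rose and 1402 fell with IBET without a call in vehicle. Across genes, which are not independent replicates, the steps had a Pearson r of 0.748.

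**Figure D1:**
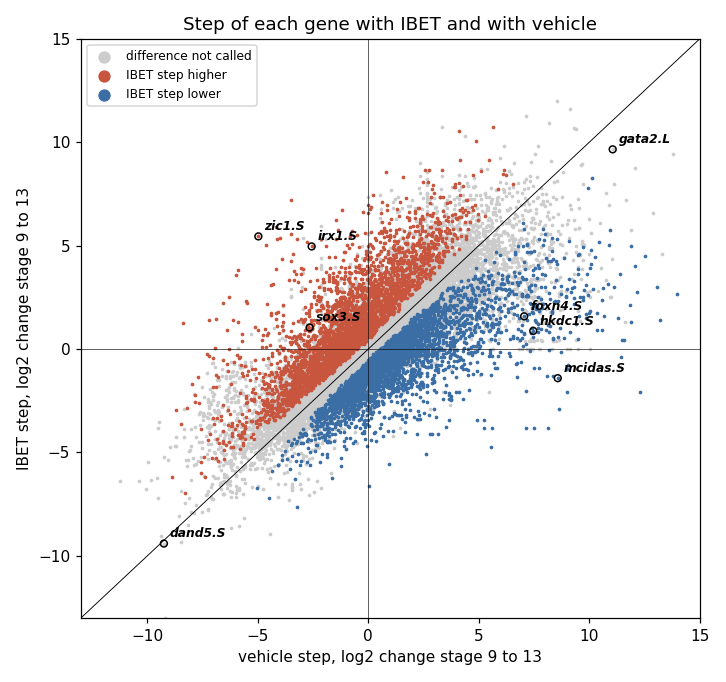
Each point is 1 of the 24090 gene copies tested, at its log2 change from stage 9 to 13 with vehicle (horizontal axis) and with IBET (vertical axis), coloured by whether the difference between the steps passed an adjusted p of 0.05. The cloud follows the diagonal with wide arms, *dand5.S* falling alike in both, *mcidas.S* rising only in vehicle and *zic1.S* moving in opposite directions.

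The size of the step was compared in genes picked from separate libraries, the vehicle groups of the TSA arm. There 4571 gene copies rose at least 4-fold and 4286 fell at least 4-fold, and 4262 and 4053 of them were tested here. The genes chosen as rising had a median step of 3.23 with vehicle (25th to 75th percentile of genes 2.38 to 4.75) and 2.48 with IBET (1.29 to 3.87). The step was smaller with IBET for 70.8% of them, and the difference was called lower for 1251 (29.4%) and higher for 291 (6.83%), where 15.4% and 14.8% of all genes were called. The genes chosen as falling had a median step of -2.98 with vehicle (-3.90 to -2.30) and -2.20 with IBET (-3.18 to -1.29). Their difference was called higher for 1142 (28.2%) and lower for 98 (2.42%). In these genes both the rises and the falls were thus shorter with IBET, with a wider gap in the bins of larger steps. The genes were chosen for large steps in vehicle, so smaller steps in another condition do not show a general damping. No genes were chosen by the IBET step. Over all genes, 6708 were called with a rise and 6551 with a fall of at least 2-fold with IBET. With vehicle these were 6918 and 6953. The 682 gene copies with the steepest rise in the TSA arm had a median step of 7.06 with vehicle here and 3.36 with IBET, and the 215 with the steepest fall had -6.25 and -4.62.

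**Figure D2:**
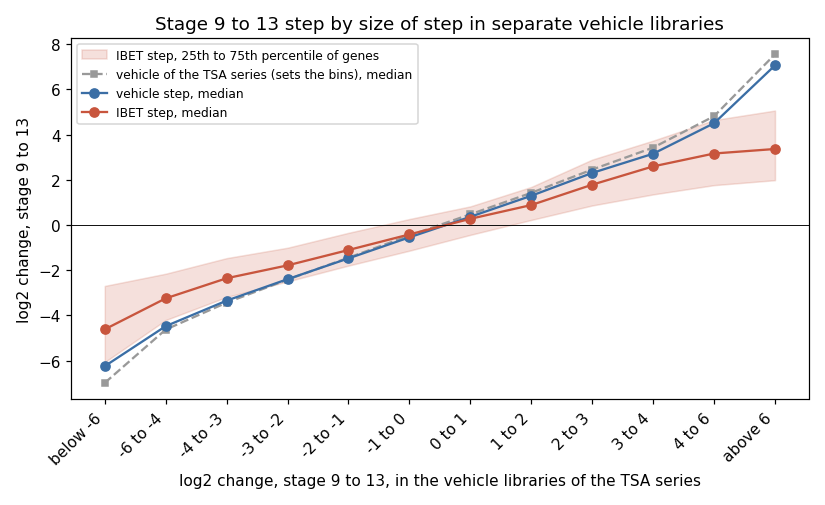
Gene copies are binned by their log2 change from stage 9 to 13 in the vehicle libraries of the TSA arm (horizontal axis), and the medians of the vehicle and IBET steps of each bin are drawn on the vertical axis with the 25th to 75th percentile of genes for IBET. The IBET line is flatter at both ends, at 3.36 against 7.06 in the top bin and -4.62 against -6.25 in the lowest.

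Most of the difference between the steps lay in the stage 13 level and not in the starting level. Among the 3703 gene copies with a lower step, the stage 13 level made the larger part for 3642 (98.4%), with a median of 0.03 for IBET against vehicle at stage 9 and -1.51 at stage 13. Among the 3567 with a higher step it did so for 2982 (83.6%), with medians of 0.00 and 1.36. For the remaining 585 the larger part was a lower level with IBET at stage 9, that is, a rise from a low start. Homeologous copies went together in part, with an r of 0.641 for the IBET step and 0.593 for the difference across 5950 pairs. A higher difference was called in both copies for 528 of the 1573 pairs with either (33.6%), and in opposite directions for 77. For a lower difference these were 504 of 1608 (31.3%) and 77.

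Epidermal genes rose with IBET, and most of them ended lower than in vehicle. Of 63 gene copies of the epidermis list that were tested, 48 rose and 5 fell with IBET, against 54 and 4 with vehicle, where 34.8% of all genes rose with IBET. Their median step was 3.08 with IBET (2.99 with genes lacking reads in a group set at their bound) and 2.87 with vehicle, while the median of the differences had the other sign, at -0.59, with 11 called higher and 21 lower. The shares of all genes were 14.8% higher and 15.4% lower. The median for IBET against vehicle was -0.75 at stage 9 and -1.30 at stage 13, so the list started low and ended lower.

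The transcription factor *gata2*, a BMP target of the non-neural ectoderm, was among the steepest rises. *gata2.L* went from 0.78 and 0.31 CPM at stage 9 to 468 and 423 CPM at stage 13 with IBET, and from 0.70 and 0.14 to 786 and 982 CPM with vehicle. Its step was 9.66 ± 0.42 (SE, adjusted p = 7.5e-07) with IBET and 11.06 ± 0.44 (adjusted p = 4.1e-07) with vehicle, and *gata2.S* had steps of 8.28 ± 0.34 and 10.12 ± 0.37. The steps of *gata2.S* differed by -1.83 ± 0.52 (adjusted p = 0.029), and those of *gata2.L* by -1.40 ± 0.71, which did not pass (adjusted p = 0.16). The stage 13 libraries of *gata2* thus lay far above those of stage 9 in both treatments. The distal-less homologue *dlx5.L* rose from 0.74 and 0.67 to 300.4 and 247 CPM with IBET, and from 3.05 and 4.56 to 134 and 128 CPM with vehicle. Its IBET step of 8.59 ± 0.26 exceeded the vehicle step of 5.1 ± 0.21 by 3.50 ± 0.32 (adjusted p = 0.00027), and for *dlx5.S* the difference was 3.83 ± 0.25 (adjusted p = 7.6e-05). The IBET libraries thus started below those of vehicle at stage 9 and ended above them at stage 13.

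*tfap2a.S*, which encodes an ectodermal AP-2 factor, rose from 7.54 and 6.53 to 145 and 109 CPM with IBET and from 62.7 and 67.9 to 154 and 133 CPM with vehicle. Its level was reduced at stage 9 and overlapped that of vehicle at stage 13, and the steps differed by 3.04 ± 0.25 (adjusted p = 0.00017). *znf750.L*, a zinc finger gene of epidermal differentiation known from mammals, rose from 13.7 and 11.1 to 176 and 181 CPM with IBET and from 66.7 and 72.3 to 348 and 394 CPM with vehicle. Its IBET libraries were the lower ones at both stages, and the steps differed by 1.43 ± 0.20 (adjusted p = 0.0013). Outside the list, the sodium channel subunit *scnn1a.L*, among the 10 largest rises with IBET, went from 0.32 and 0.49 to 170 and 168 CPM with IBET and from 2.50 and 2.87 to 208 and 176 CPM with vehicle, a difference of 2.52 ± 0.30 (adjusted p = 0.00072).

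Genes of the differentiated epidermal layers rose to lower levels. *krt12.4.L* went from 0.46 and 0.58 CPM to 17.3 and 3.51 CPM with IBET, and from 19.5 and 26.8 CPM to 2789 and 3490 CPM with vehicle. Its step was 4.24 ± 0.78 (adjusted p = 0.0012) with IBET and 7.08 ± 0.62 (adjusted p = 1.2e-05) with vehicle, and that of *krt12.4.S* was 4.68 ± 0.97 and 9.42 ± 0.73. The 2 IBET libraries of stage 13 lay far apart, and the difference between the steps, -2.84 ± 1.15 for the .L copy and -4.74 ± 1.87 for the .S copy, did not pass (adjusted p = 0.094 and 0.087). Without library a of IBET stage 13 the differences were -4.35 (adjusted p = 0.0025) and -6.44 (adjusted p = 0.0047), and the IBET steps fell to 2.70 and 2.95. Without library b they were -2.06 (adjusted p = 0.02) and -3.88 (adjusted p = 0.017). By DESeq2 they were -2.79 (adjusted p = 0.048) and -4.65 (adjusted p = 0.0035). The lower level with IBET was thus plain at both stages, while the call on the step depended on these 2 libraries. Among the 10 largest rises with IBET and outside the list, the keratin *krt12.5.S* had 3 reads over both IBET libraries of stage 9 and 3184 at stage 13, a ratio of 1545 (95% counting interval 528 to 7497), and ended at 184 and 54.8 CPM against 2936 and 3840 CPM with vehicle. *otogl2.L*, an otogelin-like gene, ended at 45 and 27.2 CPM against 3069 and 3983 CPM. The cornified envelope gene *evpl.L* had nearly the same step in both, 5.44 ± 0.22 with IBET and 5.03 ± 0.21 with vehicle, and ended at 209 and 177 CPM against 620 and 642 CPM.

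By the share of members with a called difference, multiciliated cell genes made the clearest break with the vehicle step. By the median difference, -2.36, the smaller secretory (-2.98), Hox (-2.70) and ionocyte (-2.50) lists were more negative. The Hox value rests in part on genes without reads in a group, and only 2 of its differences were called. Of 53 multiciliated gene copies tested, 43 rose with vehicle and 21 with IBET, while 5 and 12 fell. Of all genes 35.0% rose with vehicle and 34.8% with IBET, while 35.4% and 34.0% fell. The median step was 3.59 with vehicle and 0.38 with IBET (-0.10 with IBET by library totals). The difference was called lower for 36 of the 53, against 15.4% of all genes. At stage 9 the list as a whole did not stand apart, with a median of 0.01 for IBET against vehicle, and at stage 13 it was -2.75. Some regulators were already lower with IBET at stage 9. *foxj1.L* stood at 0.14 and 0.22 CPM against 2.75 and 7.34 CPM with vehicle, and *ccno.S* at 5.79 and 8.63 CPM against 19.25 and 16.73 CPM.

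Early regulators of the multiciliated program stayed low with IBET or rose to lower levels. *mcidas.S*, a coiled-coil activator at the top of the program, stood at 1.1 and 0.49 CPM at stage 9 and 0.17 and 0.38 CPM at stage 13 with IBET. With vehicle it went from 0.75 and 0.50 to 217 and 262 CPM, a step of 8.57 ± 0.34, and the steps differed by -9.98 ± 0.63 (adjusted p = 7.5e-05). *foxj1.L*, a regulator of motile cilia, stood at 169 and 180 CPM with vehicle at stage 13 and 1.19 and 0.86 CPM with IBET. Neither gene overlapped between the treatments at stage 13, which with 2 libraries a group is no separate support. *foxn4.S*, a forkhead partner in the same program, rose from 0.92 and 0.98 to 2.80 and 2.92 CPM with IBET and from 0.85 and 0.68 to 92.0 and 113 CPM with vehicle. Its step was 1.58 ± 0.23 (adjusted p = 3e-04) against 7.05 ± 0.22, a difference of -5.47 ± 0.33 (adjusted p = 5.7e-05). Its homeolog *foxn4.L* rose further with IBET, from 0.32 and 0.13 to 13.1 and 13.3 CPM, against 113 and 133 CPM with vehicle at stage 13.

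Other members of the list rose less with IBET, fell or moved alike. *ccno.L*, the cyclin O gene, rose from 5.84 and 5.68 to 20.7 and 19.99 CPM with IBET and from 6.2 and 6.47 to 196 and 211 CPM with vehicle, a difference of -3.18 ± 0.19 (adjusted p = 5.7e-05). *deup1.L*, a gene of the deuterosome, fell with IBET from 13.4 and 12.6 to 1.70 and 0.87 CPM and rose with vehicle from 14.8 and 14.4 to 67.4 and 79.9 CPM. Its steps were -3.40 ± 0.27 and 2.33 ± 0.21, and their difference was -5.74 ± 0.34 (adjusted p = 5.7e-05). *dnaaf1.S*, which serves dynein arm assembly, fell from 49.9 and 49.8 to 8.64 and 10.6 CPM with IBET while its vehicle libraries stayed between 44.9 and 47.5 CPM at both stages, a difference of -2.37 ± 0.21 (adjusted p = 0.00023). The tubulin gene *tubb4b.L* rose alike, by 5.14 ± 0.23 with IBET and 5.13 ± 0.23 with vehicle, to 2191 and 1914 CPM and 2583 and 2178 CPM. *myb.L* rose by 4.68 ± 0.32 with IBET and 6.62 ± 0.27 with vehicle, and ended at 3.64 and 4.75 CPM against 43.2 and 47.3 CPM.

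Ionocyte and secretory genes also rose less often with IBET. Of 18 ionocyte gene copies 9 rose and 4 fell with IBET, 13 rose with vehicle, and the difference was called lower for 7 and higher for 1, where 15.4% and 14.8% of all genes were called. The exception was *foxi1.L*, the forkhead gene that specifies ionocytes, which rose from 0.37 and 0.45 to 15.5 and 16.1 CPM with IBET and from 6.40 and 7.75 to 46.2 and 79.1 CPM with vehicle. Its IBET step was the higher, 5.25 ± 0.36 against 3.15 ± 0.27 (difference 2.11 ± 0.45, adjusted p = 0.0094), though its level was the lower at both stages. The homeolog *foxi1.S* did not share this. It went from 0.18 and 0.13 to 1.36 and 2.32 CPM with IBET, and from 0.75 and 2.92 to 60.4 and 98.1 CPM with vehicle. *ubp1.L*, an ionocyte transcription factor in *Xenopus*, stood at 0.83 and 0.85 CPM and then at 0.17 and 0.43 CPM with IBET, and rose with vehicle from 0.65 and 0.96 to 69.1 and 103 CPM, a difference of -8.06 ± 0.57 (adjusted p = 1e-04). The proton pump subunit *atp6v1b1.L* ended at 0.59 and 0.49 CPM with IBET and at 15.4 and 13.0 CPM with vehicle, a difference of -4.72 ± 0.52 (adjusted p = 0.00055). Other ionocyte genes did rise with IBET, to lower levels than in vehicle. The anion exchanger *slc4a1.S* went from 0.60 and 0.27 to 2.12 and 2.27 CPM with IBET and ended at 20.3 and 18.4 CPM with vehicle, and the pump subunit *atp6v1c2.L* went from 0.69 and 0.63 to 3.73 and 4.59 CPM and ended at 8.66 and 19.1 CPM.

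Of 10 secretory and cement gland gene copies 6 rose with IBET and 8 with vehicle. The difference was lower for 4 and higher for 1, where 15.4% and 14.8% of all genes were called. The higher one was the forkhead gene *foxa1.S*, which ended at 13.6 and 11.3 CPM with IBET and 7.37 and 9.24 CPM with vehicle (difference 1.92 ± 0.44, adjusted p = 0.012). Its homeolog *foxa1.L* rose in both treatments without a called difference. The secreted lectin *itln1.L* had 1 read at stage 9 and 20 at stage 13 over both IBET libraries, and 1 and 4840 with vehicle, ending at 0.76 and 0.59 CPM against 184 and 179 CPM. *agr2.S*, a disulfide isomerase of secretory cells, ended at 1.95 and 3.51 CPM against 114 and 197 CPM, with a difference of -6.82 ± 0.86 (adjusted p = 0.00097). The goblet cell regulator *spdef.S* ended at 0.25 and 0.11 CPM against 23.6 and 21.4 CPM (difference -6.54 ± 0.97, adjusted p = 0.0019), and the cement gland gene *ag1.L* at 9.07 and 6.38 CPM against 103 and 173 CPM (difference -3.26 ± 0.47, adjusted p = 0.0016). These copies were named for small adjusted p, so the gap between their IBET and vehicle libraries of stage 13 is no separate support.

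Among genes with a mean log2 CPM of 2 or more, the 10 with the most negative differences rose with vehicle, while with IBET some rose, some were not called and some fell. The largest IBET rise among them was that of the T-box gene *tbx3.S*, from 0.46 and 0.31 to 15 and 11.1 CPM, against 271 and 304 CPM with vehicle at stage 13. Several genes of lower mean level, such as *mcidas.S* and *ubp1.L* above, had differences further from 0. The protease gene *capn8.1.S* ended at 5.68 and 3.57 CPM with IBET and 313 and 248 CPM with vehicle, with steps of 2.50 ± 0.50 and 9.58 ± 0.54 and a difference of -7.09 ± 0.83 (adjusted p = 0.00069). Its IBET step was 4.0 without library a of IBET stage 9. The hexokinase-domain gene *hkdc1.S* ended at 5.0 and 2.97 CPM against 352 and 392 CPM (difference -6.59 ± 0.35), and the kinase gene *dapk2.L* at 6.1 and 4.0 CPM against 641 and 660 CPM (difference -6.74 ± 0.53). *rab27a.S*, a small GTPase of secretory granule transport, ended at 1.95 and 1.08 CPM against 93.2 and 119 CPM (difference -6.11 ± 0.39). *ano9.L*, an anoctamin gene, fell with IBET from 48.2 and 49.4 to 9.58 and 8.97 CPM and rose with vehicle from 46.6 and 55.2 to 462 and 593 CPM, a difference of -5.77 ± 0.23 (adjusted p = 1.8e-05). For the genes named here with a difference, the adjusted p lay between 1.8e-05 and 0.00069.

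**Figure D3:**
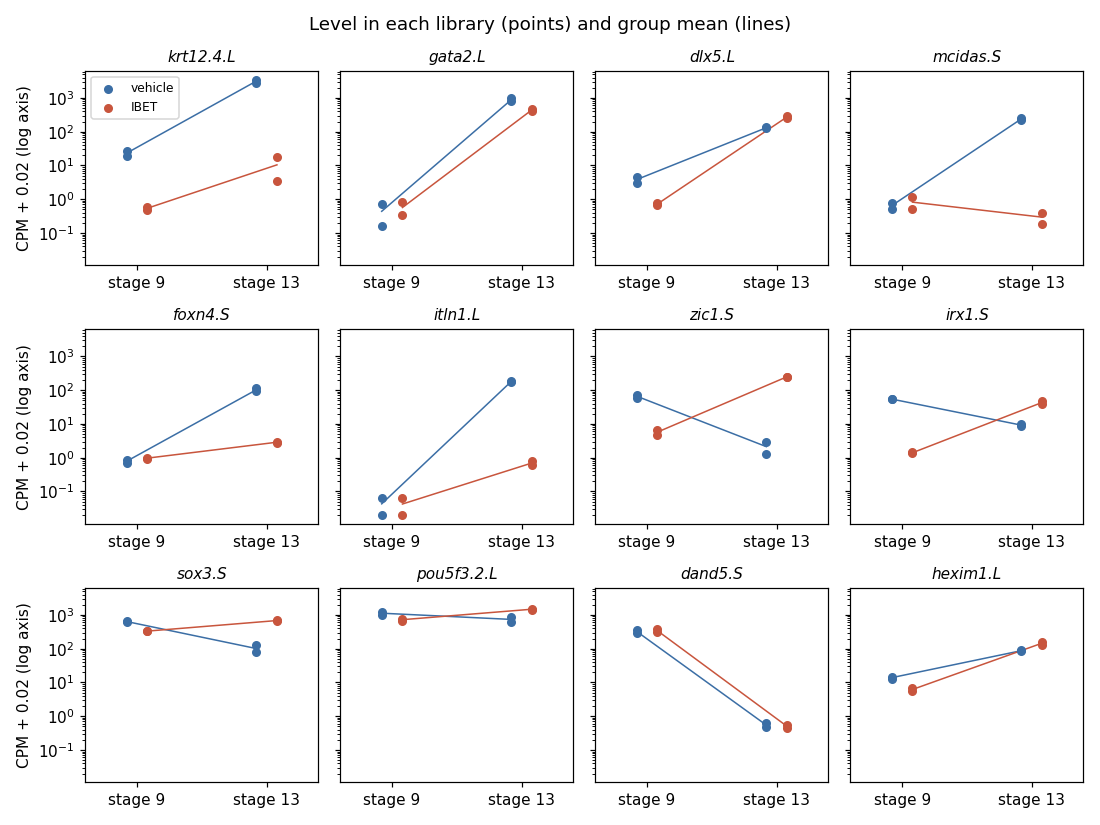
CPM of 12 gene copies in each library (points, 2 per group) and as group means (lines) at stages 9 and 13 with vehicle and with IBET, on a log axis after adding 0.02 CPM. With IBET *mcidas.S* and *itln1.L* stay low, *krt12.4.L* rises from a lower start to at most 17.3 CPM, *zic1.S* and *irx1.S* cross the vehicle line, and *dand5.S* falls alike.

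Neural progenitor genes went the other way. Of 64 gene copies tested, 43 rose and 4 fell with IBET, and 18 rose and 27 fell with vehicle. The median step was 2.70 with IBET and 0.21 with vehicle (2.23 and -0.34 by library totals), and the difference was called higher for 32 and lower for 1, where 14.8% of all genes were called higher. The list began somewhat low with IBET, at a median of -0.33 against vehicle at stage 9, and ended at 1.87.

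The zinc finger gene *zic1*, an early neural plate and plate border regulator, had the most positive differences of all named genes. *zic1.S* rose with IBET from 6.76 and 4.69 to 251 and 249 CPM and fell with vehicle from 72.2 and 60.5 to 2.96 and 1.26 CPM. Its steps were 5.45 ± 0.30 (adjusted p = 1.5e-06) and -4.97 ± 0.33 (adjusted p = 2.7e-06), a difference of 10.42 ± 0.44 (adjusted p = 1.8e-05). For *zic1.L* the steps were 5.38 ± 0.48 and -3.99 ± 0.52 and the difference 9.37 ± 0.70 (adjusted p = 0.00013), the vehicle step being -6.19 without library a of vehicle stage 13. Both copies were thus reduced by IBET at stage 9 and far above vehicle at stage 13. The Iroquois gene *irx1.S* rose from 1.43 and 1.34 to 39.7 and 46.9 CPM with IBET and fell from 55.7 and 53.2 to 8.73 and 9.69 CPM with vehicle (difference 7.52 ± 0.25, adjusted p = 1.2e-05), and for *irx1.L* the difference was 7.95 ± 0.46. The IBET level of *irx1.S* at stage 13 stayed below the vehicle level of stage 9, whereas that of *zic1.S* exceeded it.

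The SoxC gene *sox11*, active in committed neural progenitors, followed. *sox11.S* rose from 15.2 and 17.7 to 213 and 187 CPM with IBET and fell from 37.3 and 35.7 to 12.1 and 9.09 CPM with vehicle (difference 5.39 ± 0.25, adjusted p = 2.3e-05), and *sox11.L* rose from 18.6 and 15.9 to 356 and 330 CPM with IBET (difference 4.89 ± 0.28, adjusted p = 5.7e-05). The RNA-binding protein gene *msi1.S* rose in both, from 2.39 and 2.90 to 246 and 237 CPM with IBET and from 3.70 and 2.73 to 71.2 and 67.0 CPM with vehicle, a difference of 2.08 ± 0.25 (adjusted p = 0.00074). Of 19 neuron gene copies 13 rose with IBET and 10 with vehicle, and the difference was higher for 3 and lower for 3, near the 14.8% and 15.4% of all genes. *tubb2b.L*, a tubulin of young neurons, ended at 453 and 454 CPM against 133 and 109 CPM, while *isl1.S*, a homeobox gene of sensory and motor neurons, ended at 0.51 and 0.43 CPM with IBET and 19.5 and 16 CPM with vehicle.

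More pluripotency genes rose over the step with IBET than with vehicle. Of 56 gene copies tested, 38 rose and 8 fell with IBET, and 25 rose and 22 fell with vehicle. The median step was 2.15 with IBET and 0.34 with vehicle (1.67 and -0.24 by library totals), and the difference was higher for 26 and lower for 6, where 14.8% and 15.4% of all genes were called. The list was lower with IBET at stage 9, at a median of -1.26 against vehicle, and slightly higher at stage 13, at 0.26, so that the step carried it from below vehicle to about its level.

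*sox3*, a SoxB1 gene of pluripotent and neural cells, was lower with IBET at stage 9 and higher at stage 13. *sox3.S* went from 338 and 325 to 670 and 694 CPM with IBET and from 621 and 653 to 125 and 77.2 CPM with vehicle, and *sox3.L* from 141 and 140 to 390 and 345 CPM and from 309.6 and 342 to 113 and 69.5 CPM. The IBET step was 1.04 ± 0.20 (adjusted p = 0.0014) for the .S copy and 1.39 ± 0.20 (adjusted p = 0.00033) for the .L copy, against -2.66 ± 0.21 and -1.84 ± 0.21 with vehicle. The differences were 3.69 ± 0.28 (adjusted p = 0.00014) and 3.23 ± 0.29 (adjusted p = 0.00025). Under TMM its libraries with IBET at stage 13 were thus at or above the vehicle level of stage 9. That comparison crosses the stages and depends on the scaling, since the IBET steps of both copies were smaller by library totals.

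The frog relatives of mammalian Oct4 did not move together. *pou5f3.1.L* rose in both treatments and was the lower with IBET at each stage, going from 12.2 and 17.3 to 332 and 372 CPM with IBET and from 101 and 154 to 2227 and 2399 CPM with vehicle. *pou5f3.1.S* went from 3.54 and 4.02 to 32.7 and 29.0 CPM with IBET and from 55.1 and 75.5 to 432 and 373 CPM with vehicle. *pou5f3.2* was the higher with IBET at stage 13. *pou5f3.2.L* went from 670 and 777 to 1520 and 1437 CPM with IBET, a step of 1.03 ± 0.18 (adjusted p = 8e-04), and from 1010 and 1242 to 856 and 617 CPM with vehicle, and the steps differed by 1.64 ± 0.25 (adjusted p = 0.0021). *pou5f3.2.S* stood at 394 and 601 and then at 815 and 761 CPM with IBET, and its step of 0.66 ± 0.32 did not pass (adjusted p = 0.089). It passed without library b of IBET stage 9 (0.96, adjusted p = 0.042), without library a or b of vehicle stage 13 (0.62, adjusted p = 0.033 and 0.032) and by DESeq2 (0.76, adjusted p = 0.018). Its difference from the vehicle step was 2.63 ± 0.45 (adjusted p = 0.0036). The maternal relative *pou5f3.3.L* fell in both, from 848 and 576 to 5.93 and 3.84 CPM with IBET, a step of -7.22 ± 0.34 against -8.12 ± 0.36 with vehicle. Both copies of *ventx2.2*, a homeobox gene taken as the frog counterpart of Nanog, rose with IBET. *ventx2.2.L* rose by 3.34 ± 0.15 with IBET and 2.09 ± 0.14 with vehicle (difference 1.25 ± 0.19, adjusted p = 0.0023). *ventx2.2.S* rose by 1.61 ± 0.13 with IBET (difference 1.34 ± 0.18, adjusted p = 0.0014). Its vehicle step of 0.27 ± 0.13 did not pass (adjusted p = 0.091).

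Other members crossed over in the manner of *sox3*. The repressor gene *prdm1.S* rose with IBET from 2.90 and 2.99 to 70.8 and 72.2 CPM and fell with vehicle from 47.5 and 69.8 to 7.37 and 3.77 CPM, a difference of 7.99 ± 0.44 (adjusted p = 5.7e-05). The receptor gene *fgfr4.L* rose from 35.7 and 28.4 to 269 and 258 CPM with IBET and stood at 86.8 and 121 and then 66.0 and 59.4 CPM with vehicle, a difference of 3.77 ± 0.27 (adjusted p = 9.9e-05), and *fgfr4.S* had a difference of 4.06 ± 0.30 (adjusted p = 0.00012).

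**Figure D4:**
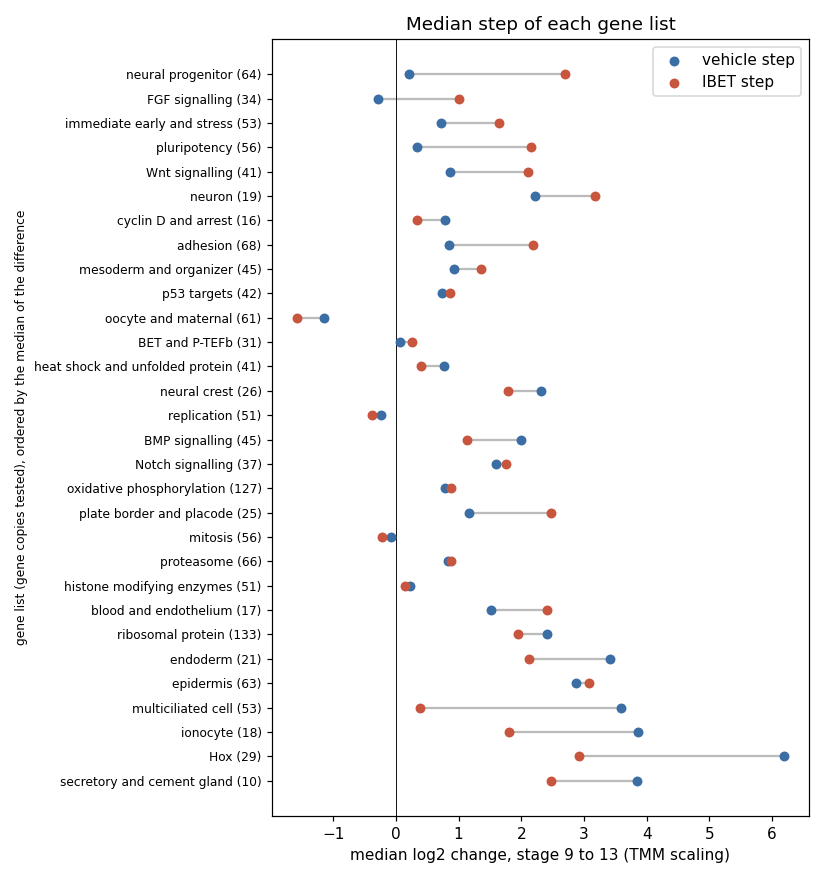
Median log2 change from stage 9 to 13 of each of the 30 gene lists with vehicle and with IBET under TMM scaling, the number of gene copies tested in parentheses, ordered by the median of the difference between the steps. The neural progenitor medians are 2.70 with IBET and 0.21 with vehicle, the multiciliated cell medians 0.38 and 3.59, and the Hox medians of 2.92 and 6.19 rest on genes without reads in a group.

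Genes of the neural crest, plate border and placodes did not shift as a block. Of 26 neural crest gene copies 18 rose and 2 fell with IBET and 16 rose and 4 fell with vehicle, and the difference was higher for 4 and lower for 6. Of 25 border and placode gene copies 20 rose with IBET, and 14 rose and 3 fell with vehicle. Their difference was higher for 8 and lower for 4. Of all genes 14.8% were called higher and 15.4% lower. The homeobox gene *msx1.S*, a plate border gene that answers BMP, ended at 35.2 and 20.1 CPM with IBET and 164 and 187 CPM with vehicle (difference -4.24 ± 0.49, adjusted p = 0.00067), and the LIM gene *lmo4.2.S* at 37.3 and 19.6 CPM and 543 and 531 CPM (difference -2.95 ± 0.39, adjusted p = 0.0012). Both were raised by IBET explants, but to a lower level than in vehicle. The 2 copies of *foxi4.2*, in the border and placode list, rose further with IBET. *foxi4.2.L* went from 39.4 and 68.0 to 282 and 314 CPM with IBET and from 112 and 127 to 138 and 148 CPM with vehicle.

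Of 45 mesoderm and organizer gene copies 17 rose and 5 fell with IBET and 21 rose and 12 fell with vehicle. Of 21 endoderm gene copies 12 rose and 1 fell against 13 and 1. The difference was higher for 9 and lower for 8 mesoderm copies, and for 1 and 7 endoderm copies. Of all genes 14.8% were called higher and 15.4% lower. The T-box gene *eomes.L* rose with IBET from 0.87 and 0.76 to 8.81 and 6.59 CPM and fell with vehicle from 6.1 and 5.88 to 2.05 and 0.81 CPM, a difference of 5.29 ± 0.60 (adjusted p = 0.00062). The summed level of the mesoderm list at stage 13 was 157 to 187 CPM with IBET and 339 to 589 CPM with vehicle, and that of the endoderm list 115 to 140 CPM and 351 to 447 CPM. Such sums lean on the most abundant copies. The median over copies for IBET against vehicle at stage 13 was 0 for the mesoderm list and -1.41 for the endoderm list. Of 17 blood and endothelium gene copies 9 rose with IBET and 8 with vehicle. Of 29 Hox gene copies, which mark posterior identity, 16 rose with IBET and 24 with vehicle, and 13 of the 29 had no read in a group of the vehicle step. With such genes at their bound the median step was 2.74 with IBET and 4.2 with vehicle. The difference was called lower for only 2 of the 29 Hox copies and higher for 0, where 15.4% and 14.8% of all genes were called. Of all genes 34.8% rose with IBET and 35.0% with vehicle.

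More members of the oocyte and maternal list fell than rose in both treatments, and fewer fell with IBET. Of 61 gene copies of the oocyte and maternal list 15 rose and 32 fell with IBET and 14 rose and 40 fell with vehicle, with median steps of -1.58 and -1.15. The median of the differences had the other sign, at 0.52, with 12 called higher and 10 lower, near the 14.8% and 15.4% of all genes. The summed level of the list nevertheless rose in both treatments. It went from 7239 and 6634 to 20850 and 16160 CPM with IBET, and from 7575 and 6910 to 20820 and 20560 CPM with vehicle. Among the 10 steepest falls, most of them outside the list, *dand5.S*, which encodes a secreted Nodal and BMP antagonist, fell from 304 and 375 to 0.42 and 0.54 CPM with IBET, a step of -9.40 ± 0.27, against -9.25 ± 0.27 with vehicle. *foxi2.L*, a maternal forkhead gene of the animal pole, fell from 305 and 231 to 0.85 and 0.27 CPM, a step of -9.04 ± 0.39 against -9.40 ± 0.41. The germ-line cyclin *ccna1.L* fell from 557 and 285 to 1.61 and 1.51 CPM, a step of -8.07 ± 0.48 against -8.57 ± 0.51. These 3 copies thus fell to about the same level in both treatments. The other copy *ccna1.S* fell further with IBET, to 3.39 and 3.57 CPM against 10.7 and 8.43 CPM with vehicle (difference -1.66 ± 0.38, adjusted p = 0.012). *dand5.L* and *foxi2.S* were also among the 10 steepest falls, at -7.87 ± 0.34 and -9.32 ± 0.46.

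Some transcripts, falling or rising, did differ between the treatments. The oocyte linker histone *h1-8.L* fell slightly less with IBET, to 9.58 and 7.89 CPM against 4.41 and 3.1 CPM, a difference of 1.17 ± 0.26 (adjusted p = 0.011). *cdc20.L*, an activator of the anaphase-promoting complex, fell further, from 367 and 316 to 27.3 and 21.6 CPM with IBET and from 390 and 334 to 103 and 106 CPM with vehicle (difference -2.02 ± 0.22, adjusted p = 0.00049). *lsm14b.S*, an RNA-granule gene, rose with IBET from 29.5 and 21.6 to 249 and 222 CPM and ended at 31.1 and 26.5 CPM with vehicle (difference 2.67 ± 0.26, adjusted p = 0.00034). Outside the list, the dehydratase gene *tgds.S* fell from 52.2 and 42.9 to 0.25 and 0.22 CPM with IBET and from 40.1 and 39.7 to 4.33 and 4.07 CPM with vehicle (difference -4.39 ± 0.34, adjusted p = 0.00015).

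In the signalling lists, FGF and Wnt genes held more positive than negative differences. Of 34 FGF gene copies 19 rose and 5 fell with IBET and 12 rose and 11 fell with vehicle, with medians of 1.01 and -0.29, and the difference was higher for 17 and lower for 4, where 14.8% and 15.4% of all genes were called. The MAP kinase phosphatase *dusp1.S* rose with IBET from 2.76 and 2.01 to 25.6 and 19.3 CPM and fell with vehicle from 53 and 39.3 to 5.62 and 4.66 CPM (difference 6.39 ± 0.37, adjusted p = 5.7e-05). The feedback inhibitor *spry2.S* went from 2.07 and 1.74 to 17.3 and 10.7 CPM and from 13.8 and 9.48 to 2.58 and 3.18 CPM (difference 4.88 ± 0.47, adjusted p = 0.00032). Both were therefore low with IBET at stage 9 and above vehicle at stage 13.

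Of 41 Wnt gene copies 29 rose and 5 fell with IBET and 25 rose and 11 fell with vehicle, with 12 differences higher and 1 lower against the same shares. The secreted inhibitor *sfrp2.L* rose from 21.6 and 32.4 to 195 and 290 CPM with IBET and fell from 75 and 96.0 to 5.16 and 3.55 CPM with vehicle (difference 7.46 ± 0.42, adjusted p = 5.7e-05). The receptor *fzd7.L* went from 232 and 283 to 448 and 525 CPM with IBET and from 303 and 351 to 25.1 and 19.9 CPM with vehicle (difference 4.78 ± 0.24, adjusted p = 3.9e-05). The level of *fzd7.L* thus rose with IBET, by less when scaled by library totals, and fell with vehicle. Retained and newly made RNA cannot be told apart here. Of 37 Notch gene copies 22 rose with IBET and 24 with vehicle. The difference was higher for 11 and lower for 10, in both directions more often than the 14.8% and 15.4% of all genes. The copies shown here both had the higher step. The receptor *notch1.L* ended at 302 and 313 CPM against 128 and 114 CPM (difference 2.91 ± 0.27, adjusted p = 0.00027), and the glycosyltransferase *lfng.L* at 97.4 and 107 CPM against 16.3 and 17.0 CPM (difference 5.19 ± 0.23, adjusted p = 2e-05).

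Of 45 BMP gene copies 25 rose and 9 fell with IBET and 29 rose and 13 fell with vehicle. The difference was higher for 12 and lower for 15, in both directions more often than the 14.8% and 15.4% of all genes. The ligand gene *bmp4.L* rose from 2.90 and 2.77 to 61.7 and 47.9 CPM with IBET and from 24 and 25.7 to 51.6 and 54.5 CPM with vehicle, a difference of 3.17 ± 0.24 (adjusted p = 0.00013), and its stage 13 libraries overlapped. The feedback inhibitor *szl.S* rose by 6.1 ± 0.22 with IBET and 7.0 ± 0.22 with vehicle, to 247 and 179 CPM and to 599 and 621 CPM. *tll1.L*, a tolloid-like protease that cleaves Chordin, ended at 8.05 and 7.19 CPM with IBET and 386 and 421 CPM with vehicle, a difference of -5.18 ± 0.56 (adjusted p = 0.00051).

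Immediate early and stress genes and p53 targets both held more positive than negative differences. Of 53 immediate early and stress gene copies 35 rose and 6 fell with IBET and 23 rose and 11 fell with vehicle, with medians of 1.65 and 0.72, and the difference was higher for 21 and lower for 4, where 14.8% and 15.4% of all genes were called. The Krüppel-like gene *klf10.S*, which answers TGF-beta, rose from 24.2 and 29.1 to 833 and 941 CPM with IBET and from 18.4 and 19.6 to 144 and 106 CPM with vehicle (difference 2.34 ± 0.24, adjusted p = 0.00041). Of 42 p53 target gene copies 23 rose in either treatment, and the difference was higher for 16 and lower for 4. The p53 ubiquitin ligase *mdm2.L* ended at 251 and 374 CPM against 117 and 102 CPM (difference 2.37 ± 0.31, adjusted p = 0.0011), and the arrest gene *gadd45a.S* at 347 and 331 CPM against 176 and 170 CPM (difference 0.95 ± 0.17, adjusted p = 0.0038). Of 41 heat shock and unfolded protein gene copies 18 rose with IBET and 21 with vehicle, and the difference was called 7 times in each direction.

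Of 31 BET and P-TEFb gene copies 12 rose and 10 fell with IBET and 13 rose and 10 fell with vehicle. Of all genes 34.8% rose and 34.0% fell with IBET, and 35.0% rose and 35.4% fell with vehicle. Among the 31 copies the difference was higher for 8 and lower for 3, where 14.8% and 15.4% of all genes were called. Among those with a lower step, *ell2.L* ended at 98.1 and 103 CPM with IBET and 194 and 223 CPM with vehicle. *hexim1*, whose protein holds P-TEFb inactive, was lower with IBET at stage 9 and higher at stage 13. *hexim1.L* went from 5.38 and 6.97 to 159 and 132 CPM with IBET and from 14.7 and 12.9 to 91.1 and 83.7 CPM with vehicle (difference 1.90 ± 0.24, adjusted p = 0.001), and *hexim1.S* had a difference of 1.65 ± 0.23 (adjusted p = 0.0016). The BET gene *brd2.S* itself rose from 95.2 and 141 to 923 and 1082 CPM with IBET and from 133 and 162 to 420 and 521 CPM with vehicle (difference 1.41 ± 0.29, adjusted p = 0.0079).

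Replication genes differed between the treatments about as often as genes at large, and mitosis and cyclin D genes more often. Of 51 replication gene copies 15 rose and 25 fell with IBET and 17 rose and 23 fell with vehicle, and the difference was higher for 9 and lower for 7. Of 56 mitosis gene copies 19 rose and 26 fell against 24 and 24, and the difference was higher for 14 and lower for 12, where 14.8% and 15.4% of all genes were called. The maternal cyclin *ccnb1.S* had a step of -6.96 ± 0.26 with IBET and -8.29 ± 0.29 with vehicle, and the zygotic *cdk1.S* rose by 4.82 ± 0.19 and 4.1 ± 0.18. Both copies named here moved in the same direction in the 2 treatments. The cyclin *ccne2.L* rose with IBET from 95.9 and 96.8 to 378 and 542 CPM and fell with vehicle from 318 and 410 to 165 and 182 CPM (difference 3.33 ± 0.27, adjusted p = 0.00017). The phosphatase *cdc25b.S* rose from 6.76 and 11.6 to 68.2 and 78.4 CPM and fell from 171 and 266 to 95.5 and 64.1 CPM (difference 4.45 ± 0.44, adjusted p = 0.00035). Of 16 cyclin D and arrest gene copies 7 rose with IBET and 8 with vehicle, with 8 differences higher and 2 lower.

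All 133 ribosomal protein gene copies tested rose in both treatments under TMM, and also by library totals with IBET. Their median steps under TMM were 1.94 with IBET and 2.41 with vehicle. The difference was lower for 14, where 15.4% of all genes were called lower and 14.8% higher. By library totals 131 of the 133 rose with vehicle. *rpl8.L* ended at 61.7 and 49.3 CPM with IBET against 151 and 167 CPM (difference -1.48 ± 0.27, adjusted p = 0.0045), and *rps6.L* rose by 2.99 ± 0.17 and 3.67 ± 0.17. Of 127 oxidative phosphorylation gene copies 80 rose in either treatment with 3 and 5 differences called higher and lower, and of 66 proteasome gene copies 49 rose with IBET and 45 with vehicle with 3 and 6. Of 51 gene copies of histone modifying enzymes 18 rose and 17 fell with IBET and 24 rose and 16 fell with vehicle, and the median of 0.14 with IBET was -0.34 by library totals. The IBET counts were near the shares of all genes, 34.8% for rises and 34.0% for falls. With vehicle those shares were 35.0% and 35.4%. The difference was higher for 7 and lower for 8 of these copies, near the 14.8% and 15.4% of all genes.

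Adhesion genes had more positive differences than genes at large and about as many negative ones. Of 68 gene copies 47 rose and 9 fell with IBET and 41 rose and 13 fell with vehicle, and the difference was higher for 32 and lower for 9, where 14.8% and 15.4% of all genes were called. P-cadherin, *cdh3.S*, known as the maternal cadherin of the frog blastula, rose from 134 and 150 to 432 and 374 CPM with IBET and fell from 155 and 158 to 103 and 84.9 CPM with vehicle (difference 2.24 ± 0.20, adjusted p = 0.00024). The ephrin *efnb2.S* ended at 198 and 202 CPM against 80.0 and 72.7 CPM (difference 2.39 ± 0.20, adjusted p = 2e-04). The protocadherin *pcdh1.S* fell from 137 and 126 to 13.6 and 11.4 CPM with IBET and from 152 and 151 to 93.7 and 96.1 CPM with vehicle (difference -2.72 ± 0.19, adjusted p = 8.9e-05).

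**Figure D5:**
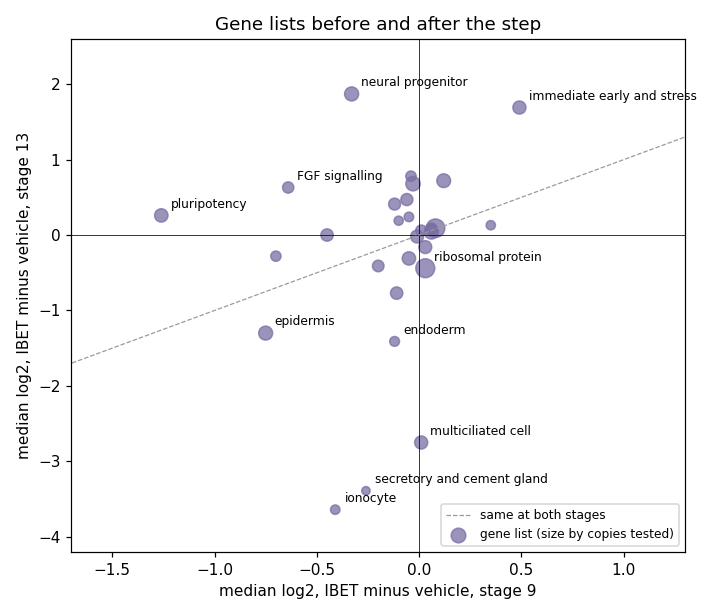
Median log2 level with IBET against vehicle at stage 9 (horizontal axis) and at stage 13 (vertical axis) for 29 gene lists, the Hox list being left out because most members had few reads at stage 9. The pluripotency list goes from -1.26 to 0.26 and the neural progenitor list from -0.33 to 1.87, while the multiciliated, ionocyte and secretory lists lie at 0.01, -0.41 and -0.26 at stage 9 and at -2.75, -3.64 and -3.39 at stage 13.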

How the data were processed

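RNA of animal pole explants was sequenced in 8 libraries of 4 groups, 2 per group. The authors deposited raw counts per gene, for which the submitters' processing notes name fastp 0.23.2, STAR 2.6.0 and HTSeq 1.99.2. The genome build is that of the paper's methods, and as no annotation of it was at hand, no coordinates or sequences are given. Rows that name no gene took 22.8 to 31.4% of the reads and stayed out of totals and tests. The authors' own tables of fold changes and p-values were not used. Columns are lettered a and b, whereas the labels number their replicates.

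Counts were tested in R 4.3.3 with edgeR 4.0.16, in 1 fit of the 4 groups: filterByExpr (minimum count 10, minimum total 15), TMM scaling and the quasi-likelihood test, two-sided, with Benjamini-Hochberg adjustment over all genes tested. SE is the log2 change over the square root of F. The vehicle libraries of the TSA arm were fitted alone. No exact permutation test was run, since its smallest p at this size is 0.33. Ratios with 1 to 3 reads in a group carry an exact 95% interval, and a group with no read was set to a floor of 3 reads over the group; both cover counting error only. DESeq2 1.42.0, RLE scaling, library totals, no filter, the fits of 2 groups alone and leaving out each library were the alternatives.

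Gene lists (30) and tests were chosen with earlier results of these data known. Named genes are both copies of *sox3*, *pou5f3.2*, *ventx2.2* and *krt12.4*, the 10 largest rises, falls and differences in each direction among annotated genes whose log2 CPM averaged 2 or more, and up to 4 members per list of smallest adjusted p. Of these the text gives a part, and the tissue markers besides.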

Additional observations from a re-analysis of the deposited data

Results flagged for a closer look

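The named genes below are set apart because the test of the difference between the IBET step and the vehicle step passed an adjusted p of 0.05 by edgeR. Each value is that difference on the log2 scale, and the levels behind it stand in the report. Not every named gene that passed is listed. Among those left out are *itln1.L*, *isl1.S*, *tbx3.S* and *gata2.S* with a lower step, and *tubb2b.L*, *foxi4.2.L* and *foxa1.S* with a higher one.

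The step was higher with IBET in the following. Among epidermal and ionocyte genes it was 3.50 for *dlx5.L*, 3.83 for *dlx5.S*, 3.04 for *tfap2a.S*, 1.43 for *znf750.L*, 2.52 for *scnn1a.L* and 2.11 for *foxi1.L*. Among neural progenitor genes it was 10.42 for *zic1.S*, 9.37 for *zic1.L*, 7.52 for *irx1.S*, 7.95 for *irx1.L*, 5.39 for *sox11.S*, 4.89 for *sox11.L* and 2.08 for *msi1.S*. Among pluripotency genes it was 3.23 for *sox3.L*, 3.69 for *sox3.S*, 1.64 for *pou5f3.2.L*, 2.63 for *pou5f3.2.S*, 1.25 for *ventx2.2.L*, 1.34 for *ventx2.2.S*, 7.99 for *prdm1.S*, 3.77 for *fgfr4.L* and 4.06 for *fgfr4.S*. Among signalling genes it was 7.46 for *sfrp2.L*, 4.78 for *fzd7.L*, 3.17 for *bmp4.L*, 6.39 for *dusp1.S*, 4.88 for *spry2.S*, 5.19 for *lfng.L* and 2.91 for *notch1.L*. Among stress, p53 and P-TEFb genes it was 2.34 for *klf10.S*, 1.90 for *hexim1.L*, 1.65 for *hexim1.S*, 0.95 for *gadd45a.S*, 2.37 for *mdm2.L* and 1.41 for *brd2.S*. Among cell cycle, adhesion, mesoderm and maternal genes it was 4.45 for *cdc25b.S*, 3.33 for *ccne2.L*, 2.39 for *efnb2.S*, 2.24 for *cdh3.S*, 5.29 for *eomes.L*, 1.17 for *h1-8.L* and 2.67 for *lsm14b.S*.

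The step was lower with IBET in the following. Among multiciliated cell genes it was -9.98 for *mcidas.S*, -5.47 for *foxn4.S*, -3.18 for *ccno.L*, -5.74 for *deup1.L* and -2.37 for *dnaaf1.S*. Among ionocyte and secretory genes it was -8.06 for *ubp1.L*, -4.72 for *atp6v1b1.L*, -6.82 for *agr2.S*, -6.54 for *spdef.S* and -3.26 for *ag1.L*. Among genes of the largest negative differences it was -7.09 for *capn8.1.S*, -6.74 for *dapk2.L*, -6.59 for *hkdc1.S*, -6.11 for *rab27a.S* and -5.77 for *ano9.L*. Among other genes it was -5.18 for *tll1.L*, -4.24 for *msx1.S*, -2.95 for *lmo4.2.S*, -1.48 for *rpl8.L*, -2.72 for *pcdh1.S*, -4.39 for *tgds.S* and -2.02 for *cdc20.L*.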

How the results depend on the processing

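The called counts of the IBET step, the vehicle step and the difference were 16556, 16951 and 7270. They were 15721, 16125 and 7352 by DESeq2, 16571, 16943 and 7250 with RLE scaling, and 17600, 18065 and 7710 with no filter. Fits of the 2 groups of a step alone gave 15858 and 16116. Leaving out 1 library gave 14352 to 16811 for the IBET step, 15149 to 17362 for the vehicle step and 4790 to 6261 for the difference, lowest without library b of vehicle stage 13, and the cause was not tested. With the letters a and b as a replicate block the counts were 17676, 18037 and 9272. The deviations of libraries of the same letter had correlations of 0.168 to 0.668 over 6 pairs of groups, but the letters are not the replicate numbers of the labels and no source says what they share.

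Differences not listed above, apart from those of *krt12.4*, were not rerun under these settings. No named value that was rerun changed direction. The only calls that changed were the IBET step of *pou5f3.2.S* and the differences of both copies of *krt12.4*, with the values in the report and, with no filter, 0.50 (adjusted p = 0.028) for *pou5f3.2.S*, -2.92 (adjusted p = 0.00036) for *krt12.4.L* and -4.82 (adjusted p = 3e-04) for *krt12.4.S*. The fit of the 2 IBET groups alone gave 0.67 (adjusted p = 0.02) for *pou5f3.2.S*. By library totals the IBET steps of *sox3.L*, *sox3.S*, *pou5f3.2.L* and *fzd7.L* fell to 0.91, 0.56, 0.55 and 0.44, and the vehicle steps of *tfap2a.S*, *bmp4.L* and *brd2.S* to 0.56, 0.52 and 1.1, all still called. With 2 libraries a group, a step that misses the threshold is not shown to be absent.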
